A study of Homo sapiens with 18 samples.

Results

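The genes described here are 9 transcripts that textbooks give as responsive to the co-activator YAP, to TGF-beta or to both: CTGF, CYR61, ANKRD1, AMOTL2, LATS2, F3, TGFB2, THBS1 and SMAD7. They were found by their symbols among the 23411 symbols of each count table, and all 9 were matched and passed the filter on low counts in every comparison. Their mRNA was counted in 18 samples of ARPE-19 cells, an immortalized line from human retinal pigment epithelium (RPE), with 3 samples in each of 6 groups. All cells had been transduced with lentiviral particles carrying Cas9. The control cells received particles without a guide RNA. The NRF2 ΔC cells, a single clone named C1, received a guide against exon 5 of NFE2L2, the gene of the antioxidant transcription factor NRF2, and carry stop codons at positions 503 and 505 of the 2 alleles, so that the C-terminal end of the protein is lost. A difference between the cell lines therefore cannot be told apart from a difference between this clone and the control population. Each line was left untreated (Milli-Q water) or was given 1 mM NACET, the ethyl ester of N-acetyl-L-cysteine that enters cells and delivers cysteine, or 0.2 mM hydrogen peroxide (H2O2). The sources give different schedules for these samples: the sample labels name 2 h of treatment after 22 h in 1% serum, and the series text and the study's methods name 8 h after 40 h in 10% serum. Nothing says that the 3 samples of a group came from separate cultures, so the p-values measure the spread between these samples only. The libraries hold 16673306 to 25951154 reads on genes.

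The edited gene and its reporter came first as a check of the labels. NFE2L2 mRNA was between 102 and 149 CPM (counts scaled to library size and normalized by the TMM method) in all 18 samples and did not separate the lines, and a count over all exons does not show an edit in the last of them. NQO1, the best known target of NRF2, was between 168 and 1215 CPM in the 9 control samples and between 11.4 and 22.6 CPM in the 9 NRF2 ΔC samples, and the lines did not overlap. Of the 12 RPE markers, 7 had a median of at least 1 CPM over the 18 samples. RPE65 and TTR, which mature RPE expresses strongly, were at most 0.0581 and 0.0912 CPM, and the 2 leukocyte and 3 endothelial markers were below or near 1 CPM. Of the 6 fibroblast markers 3 had such a median, the highest for VIM, while COL1A2, THY1 and DCN had a median of 0. By these medians the RPE sum is mostly KRT8 (554 CPM) and KRT18 (409 CPM), with OTX2 (132 CPM) and MITF (119 CPM) next. The fibroblast sum is mostly VIM (5810 CPM). The summed level of the RPE markers was lower with H2O2 (956 to 1023 CPM in control samples, 941 to 1056 CPM in NRF2 ΔC samples) than in untreated cells (1360.2 to 1383 and 1309 to 1438 CPM). With NACET it was 1137 to 1290.2 CPM in control samples, below all untreated ones, and 1113 to 1324 CPM in NRF2 ΔC samples, overlapping them. The fibroblast sum was 4464 to 5660.2 and 5070.3 to 6364 CPM with H2O2 against 6159 to 7226 and 6705 to 7180.3 CPM untreated, for control and NRF2 ΔC samples. With NACET it was 4897 to 6815 and 5921 to 6908 CPM, and the part of both lists in the results on either treatment was not tested. In bulk RNA, fewer cells of a kind and less RNA per cell cannot be told apart.

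YAP and its paralogue TAZ are co-activators that are kept out of the nucleus when the Hippo kinases phosphorylate them. In the nucleus they bind TEAD factors and raise genes of matrix, adhesion and growth, such as CTGF, CYR61 and ANKRD1, and also genes that restrain them, such as LATS2 and AMOTL2. TGF-beta acts through receptor kinases and SMAD factors, which share several targets with YAP and induce their own inhibitor SMAD7. In RPE cells both pathways are known for the change from an epithelial to a mesenchymal state, and cell density, serum and stiffness of the support set YAP activity.

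The members lie on 7 chromosomes of hg19, the build of the counts, with positions taken here from GENCODE release 44 lifted to that build. CTGF (now CCN2) is at chr6:132269316-132272512 on the minus strand and CYR61 (now CCN1) at chr1:86046444-86050272 on the plus strand. ANKRD1 is at chr10:92671853-92680844, AMOTL2 at chr3:134074189-134094321, LATS2 at chr13:21547175-21635725, F3 at chr1:94994729-95007315 and SMAD7 at chr18:46446223-46477335, all on the minus strand. TGFB2 is at chr1:218518678-218617961 and THBS1 at chr15:39873280-39891667, both on the plus strand. The counts took in all exons without regard to strand. Reads that matched several counted genes were set aside as ambiguous, 0.955% to 1.18% of reads per library. Reads from antisense transcripts without a row of their own cannot be told apart from the member's own. Exons of TGFB2 share 701 bases with the antisense TGFB2-AS1, those of THBS1 share 411 bases with THBS1-AS1 and 448 with FSIP1, and those of CTGF share 278 bases with LINC01013, and of these only FSIP1 has a row of its own in the count tables.

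The promoters are shown because the members are grouped by factors that bind there, while their transcripts moved in different directions below. RefSeq windows on GRCh38.p14 were held for 8 of the 9 members (CYR61 had none), and the 250 bases before the outermost start of each were searched on both strands for GGAATG (TEAD), CAGACA (SMAD), TGANTCA (AP-1), where N is any base, and for the CArG box of SRF, searched as CC and GG with any 6 bases between. GGAATG was found in 4 of 8 members and in 11.9% of all 35116 windows of this length. CAGACA was found in 3 of 8 members and in 13.6% of all windows, and TGANTCA in 2 of 8 and 6.57%. The SRF letters were found in 6 of 8 members and in 73.7% of all windows. CTGF, ANKRD1, TGFB2 and THBS1, the 4 with the TEAD letters, are printed 5′ to 3′ on the gene's strand, with the TEAD, SMAD and AP-1 letters in capitals on either strand (CATTCC is the TEAD match on the other strand). Their windows are chr6:131951373-131951622, minus strand for CTGF, chr10:90921088-90921337, minus strand for ANKRD1, chr1:218345086-218345335, plus strand for TGFB2 and chr15:39580829-39581078, plus strand for THBS1.
CTGF: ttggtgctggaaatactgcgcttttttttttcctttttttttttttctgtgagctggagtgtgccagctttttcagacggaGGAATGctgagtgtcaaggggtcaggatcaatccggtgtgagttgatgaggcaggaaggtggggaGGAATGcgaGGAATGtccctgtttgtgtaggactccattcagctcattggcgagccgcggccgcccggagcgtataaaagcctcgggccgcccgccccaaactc
ANKRD1: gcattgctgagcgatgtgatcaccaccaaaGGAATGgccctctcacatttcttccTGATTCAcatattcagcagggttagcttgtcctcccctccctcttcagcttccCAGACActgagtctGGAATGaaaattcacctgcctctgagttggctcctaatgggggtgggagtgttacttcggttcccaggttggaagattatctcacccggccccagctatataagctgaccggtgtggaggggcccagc
TGFB2: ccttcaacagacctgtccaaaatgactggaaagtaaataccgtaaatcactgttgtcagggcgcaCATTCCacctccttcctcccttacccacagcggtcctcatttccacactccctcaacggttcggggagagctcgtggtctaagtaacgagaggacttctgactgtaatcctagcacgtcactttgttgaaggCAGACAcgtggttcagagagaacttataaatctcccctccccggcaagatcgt
THBS1: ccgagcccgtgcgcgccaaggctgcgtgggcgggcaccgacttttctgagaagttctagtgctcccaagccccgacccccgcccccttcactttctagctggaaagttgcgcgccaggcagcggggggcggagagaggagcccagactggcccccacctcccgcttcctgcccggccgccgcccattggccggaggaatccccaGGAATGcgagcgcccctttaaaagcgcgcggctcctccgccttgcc
CTGF held the TEAD letters at 3 places and ANKRD1 at 2, with the SMAD and AP-1 letters between them in ANKRD1. LATS2 and SMAD7 held none of the TEAD, SMAD and AP-1 letters in this window, and AMOTL2 held the SMAD letters on the other strand. A further window of AMOTL2, before a start inside the gene, held CATTCC once. These matches are letters in a window and not measured binding.

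**Figure D1:**
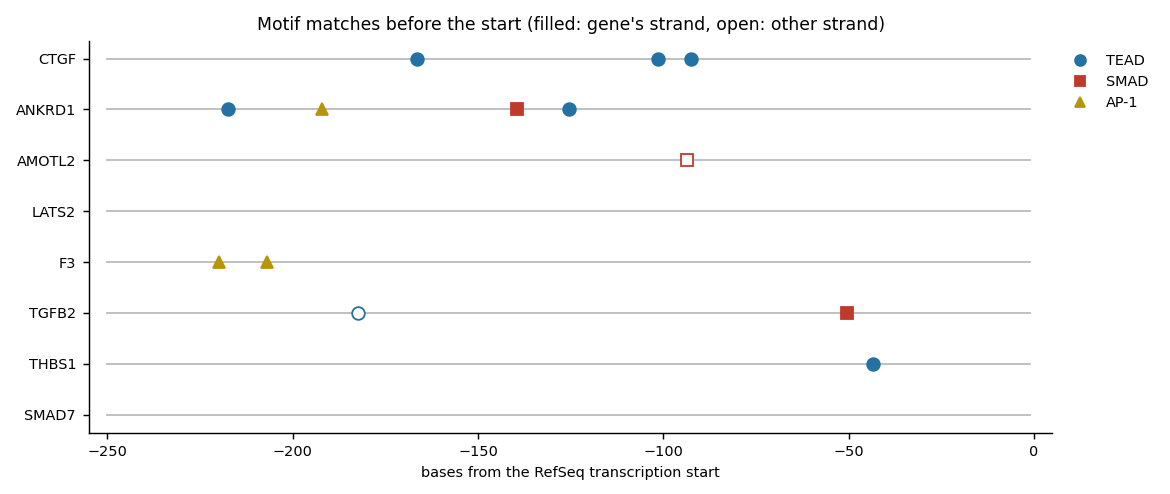
Matches to the TEAD, SMAD and AP-1 letters in the 250 bases before the outermost RefSeq start of the 8 members with a window, against distance from the start in bases. Filled symbols are on the gene's strand and open ones on the other. CTGF has 3 TEAD matches and ANKRD1 has 2, and LATS2 and SMAD7 have no symbol.

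Per length, the members covered a wide range of levels. In untreated control cells, mean CPM per kilobase of merged exon was 165 for CYR61, 150.4 for F3, 95.9 for CTGF, 84.7 for TGFB2 and 79.3 for AMOTL2. It was 40.3 for ANKRD1, 31.2 for THBS1, 12.9 for LATS2 and 8.62 for SMAD7. Over the 18 samples the span of CPM from the lowest to the highest sample was 6.07-fold for ANKRD1, 4.88-fold for TGFB2 and 3.8-fold for THBS1, and between 1.98-fold (CYR61) and 2.48-fold (CTGF) for the other 6.

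At most 3 of the 9 members passed the test in a comparison, and where more than 1 passed, their directions differed. A gene was called when its adjusted p was under 0.05 and its log2 fold change at least 0.6 in size, and each count is given beside the share of all tested genes called in the same way. The members were chosen with earlier results of these data known, so this share is a description and not an independent baseline for them. With NACET against untreated cells, 1 of 9 members was called in control cells (AMOTL2, lower) against 2.75% of all genes, and none in NRF2 ΔC cells against 1.39%. In the latter, 5 of 9 had an unadjusted p under 0.05 in edgeR, against 18.6% of all genes, and DESeq2 called 2 (ANKRD1 and AMOTL2, lower) against 3.14% of all genes. With H2O2, none was called in control cells by edgeR or DESeq2, against 6.33% of all genes in edgeR and 5.36% in DESeq2, and 1 of 9 had an unadjusted p under 0.05 in edgeR against 30.7% of all genes. In NRF2 ΔC cells H2O2 gave 2 calls (ANKRD1 higher, THBS1 lower) against 9.81%. With NACET against H2O2, 2 were called in control cells (CTGF higher, ANKRD1 lower) against 3.67%, and 3 in NRF2 ΔC cells (CTGF and THBS1 higher, ANKRD1 lower) against 8.31%. Between NRF2 ΔC and control cells, 1 was called in untreated cells (ANKRD1, lower) against 3.85%, 1 with H2O2 (F3, lower) against 5.62%, and 3 with NACET (ANKRD1 and F3 lower, SMAD7 higher) against 4.76%. An unadjusted p under 0.05 in edgeR was also found for 4 of 9 with NACET in control cells, against 20.8% of all genes. For H2O2 in NRF2 ΔC cells it was 4 of 9 against 29.7%. For NACET against H2O2 it was 4 of 9 in both lines, against 23.4% in control and 26.7% in NRF2 ΔC cells. Between the lines it was 4, 5 and 6 of 9 untreated, with H2O2 and with NACET, against 13.7%, 23.7% and 18.6%. The median log2 fold change of the members lay between -0.32 and 0.02 over these 9 comparisons, and that of all tested genes between -0.01 and 0.01. Comparisons within a line share samples. Without NRF2 ΔC replicate 1 with H2O2, 5 members in place of 1 were called between the lines with H2O2, adding LATS2, TGFB2, THBS1 and SMAD7 to F3, and the share of all genes called rose with it from 5.62% to 17.6%.

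Samples of the same replicate number within a line deviated together, so a fit with the replicate number as a block was also made for the comparisons within a line. It called 7.49% of all genes for NACET and 10.2% for H2O2 in control cells, 8.82% and 18.7% in NRF2 ΔC cells, and 7.5% and 15.5% for NACET against H2O2 in control and NRF2 ΔC cells. Among the members it changed 4 calls, all in NRF2 ΔC cells: ANKRD1, AMOTL2 and TGFB2 were called lower with NACET against untreated cells, 3 of 9, and TGFB2 was called lower with NACET against H2O2, 4 of 9. In control cells it called the same number of members as without the block, 1 with NACET, none with H2O2 and 2 between the treatments.

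CTGF, a secreted matricellular protein that promotes scarring, was higher with NACET than with H2O2 in both lines. In control cells it was 253, 195 and 224 CPM untreated, 201, 155 and 188 CPM with H2O2, and 369.8, 261 and 271 CPM with NACET. Samples of the clone had 304, 261 and 238 CPM untreated, 203, 166 and 187 CPM with H2O2, and 384, 318 and 291 CPM with NACET. The NACET and H2O2 samples did not overlap in either line, and the mean of the untreated samples lay between theirs. The log2 fold change of NACET over H2O2 was 0.72 (SE 0.16, adjusted p = 0.0428) in control and 0.85 (SE 0.15, adjusted p = 0.0144) in NRF2 ΔC cells, or 1.65-fold and 1.8-fold. Against untreated cells neither treatment passed the test: the log2 values were 0.42 and 0.30 with NACET, and -0.29 and -0.53 with H2O2, for the control line first. The lines themselves differed by a log2 value of 0.26 (SE 0.15) untreated, 0.03 (SE 0.14) with H2O2 and 0.13 (SE 0.18) with NACET, none past the test. In control cells the call held in 1 of 6 fits that each left out a sample, that without NACET replicate 3, and adjusted p was 0.0856, 0.160 and 0.0947 without H2O2 replicates 1, 2 and 3 and 0.0701 and 0.101 without NACET replicates 1 and 2. In NRF2 ΔC cells it held in 3 of 6, and adjusted p was 0.0846 and 0.0556 without H2O2 replicates 2 and 3 and 0.0662 without NACET replicate 2.

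CYR61, the other matricellular CCN protein, was the member with the highest counts and passed no test. It ranged from 489.6 to 758 CPM in the 9 control samples. NRF2 ΔC samples had 655, 684 and 684 CPM untreated, 723, 744 and 737 CPM with NACET, and 749, 945 and 970.4 CPM with H2O2. The 3 groups of NRF2 ΔC samples did not overlap, with H2O2 above NACET and NACET above untreated cells. The log2 fold change with H2O2 was 0.40 (SE 0.14, adjusted p = 0.101) in NRF2 ΔC and 0.16 (SE 0.13, adjusted p = 0.449) in control cells. Its order of levels therefore differed from that of CTGF, which was lowest with H2O2.

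ANKRD1, a nuclear ankyrin repeat protein and a sensitive reporter of YAP and TEAD, varied most. In control cells it was 58.5, 66.4 and 91.5 CPM untreated, 71.0, 91.8 and 104 CPM with H2O2, and 47.2, 50.8 and 60.8 CPM with NACET. Samples of the clone had 23.5, 38.6 and 40.5 CPM untreated, 52.4, 96.3 and 71.8 CPM with H2O2, and 17.2, 22.4 and 18.8 CPM with NACET. In NRF2 ΔC cells the 3 groups did not overlap, and all untreated and NACET samples lay below the untreated and NACET samples of control cells. H2O2 raised it 2.16-fold in NRF2 ΔC cells (log2 1.11, SE 0.26, adjusted p = 0.0298). In control cells the log2 value was 0.32 (SE 0.18, adjusted p = 0.268), and the groups overlapped. With NACET the log2 value was -0.45 (SE 0.17, adjusted p = 0.190) in control and -0.83 (SE 0.21, adjusted p = 0.0976, and 2.91e-05 with the replicate block) in NRF2 ΔC cells.

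Set against H2O2, NACET gave 1.69-fold lower ANKRD1 in control cells (log2 -0.76, SE 0.15, adjusted p = 0.0314) and 3.76-fold lower in NRF2 ΔC cells (log2 -1.91, SE 0.23, adjusted p = 0.00526). ANKRD1 was 2.11-fold lower in NRF2 ΔC than in control cells when untreated (log2 -1.08, SE 0.23, adjusted p = 0.0330) and 2.74-fold lower with NACET (log2 -1.45, SE 0.14, adjusted p = 0.00103). With H2O2 the lines overlapped, and the log2 value was -0.28 (SE 0.22, adjusted p = 0.452). The fall with NACET against H2O2 in NRF2 ΔC cells and the difference of the lines with NACET held in all 6 fits that left out a sample. The difference of the untreated lines held in 2 of 6, with adjusted p of 0.0999 and 0.0831 without control replicates 2 and 3 and 0.117 and 0.0559 without NRF2 ΔC replicates 2 and 3. The rise with H2O2 in NRF2 ΔC cells held in 2 of 6, with 0.0859 and 0.0640 without untreated replicates 2 and 3 and 0.134 and 0.0788 without H2O2 replicates 2 and 3. The fall in control cells held in 2 of 6, with 0.125 and 0.0785 without H2O2 replicates 2 and 3 and 0.0685 and 0.135 without NACET replicates 1 and 2. NACET against untreated NRF2 ΔC cells passed the test in 1 of 6, with 0.0220 without untreated replicate 1. That fit called 1.02% of all genes, against 1.39% in the full fit.

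AMOTL2 and LATS2 belong to the restraining arm: AMOTL2 is an angiomotin that holds YAP at junctions, and LATS2 is the kinase that phosphorylates it. AMOTL2 was 559, 472 and 511 CPM in untreated control cells, 434, 402 and 389 CPM with H2O2, and 318, 342 and 351 CPM with NACET. NRF2 ΔC samples had 512, 442 and 387 CPM untreated, 401, 328 and 362 CPM with H2O2, and 298, 265 and 249 CPM with NACET. All NACET samples lay below all H2O2 and untreated samples of their line. NACET lowered it 1.53-fold in control cells (log2 -0.61, SE 0.11, adjusted p = 0.0271). In NRF2 ΔC cells the log2 value was -0.73 (SE 0.14) with an adjusted p of 0.0516, and of 4.53e-07 with the replicate block, which called it lower. With H2O2 the log2 values were -0.31 (SE 0.11, adjusted p = 0.0846) and -0.29 (SE 0.15, adjusted p = 0.234). The lines did not differ past the test, with log2 values from -0.32 to -0.17. In control cells the call held in 1 of 6 fits that left out a sample, and adjusted p was 0.0983, 0.0653 and 0.0636 without untreated replicates 1, 2 and 3 and 0.0806 and 0.159 without NACET replicates 1 and 2. Those 6 fits gave log2 values from -0.67 to -0.54 and called 0.223% to 2.43% of all genes, against 2.75% in the full fit. In NRF2 ΔC cells AMOTL2 passed in 1 of 6, with an adjusted p of 0.0335 without NACET replicate 1. There the 6 fits called 0% to 3.38% of all genes, against 1.39% in the full fit.

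LATS2 was 84.4, 68.0 and 64.0 CPM in untreated control cells, 75.9, 72.4 and 61.2 CPM with H2O2, and 51.9, 53.9 and 48.7 CPM with NACET. Samples of the clone had 56.0, 49.6 and 41.5 CPM untreated, 53.8, 46.2 and 43.4 CPM with H2O2, and 42.6, 42.0 and 36.9 CPM with NACET. In both lines the NACET samples lay below the H2O2 samples, and each NRF2 ΔC group lay below the control group of the same treatment. No difference reached both limits. The log2 value of NACET against untreated cells was -0.49 (SE 0.13, adjusted p = 0.0787) in control and -0.28 (SE 0.14, adjusted p = 0.326) in NRF2 ΔC cells. Between the lines it was -0.56 (SE 0.16, adjusted p = 0.123) untreated, -0.55 (SE 0.14, adjusted p = 0.0492, under the fold limit) with H2O2 and -0.35 (SE 0.11, adjusted p = 0.124) with NACET. With H2O2 against untreated cells LATS2 was at -0.03 in both lines. Without NRF2 ΔC replicate 1 the difference of the lines passed untreated (log2 -0.67, adjusted p = 0.0311) and with H2O2 (log2 -0.65, adjusted p = 0.00543). Those fits called 6.49% and 17.6% of all genes, against 3.85% and 5.62% in the full fits.

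F3, tissue factor, which starts coagulation on cell surfaces, differed between the lines in the treated cells. It was 412, 369 and 522 CPM in untreated control cells, 433, 395 and 478 CPM with H2O2, and 433, 360.4 and 415 CPM with NACET. NRF2 ΔC samples had 301, 308 and 384 CPM untreated, 262, 266 and 295 CPM with H2O2, and 283, 252 and 259.8 CPM with NACET. The treated NRF2 ΔC samples all lay below the treated control samples, and the untreated ones overlapped. NRF2 ΔC cells had 1.59-fold less F3 with H2O2 (log2 -0.67, SE 0.12, adjusted p = 0.0128) and 1.53-fold less with NACET (log2 -0.61, SE 0.12, adjusted p = 0.0222). Untreated, the log2 value was -0.39 (SE 0.16, adjusted p = 0.308). Within a line, no treatment passed the test, with log2 values from -0.33 to 0.02 against untreated cells. With H2O2 the call of the lines held in 4 of 6 fits, with adjusted p of 0.0537 without control replicate 1 and 0.0708 without NRF2 ΔC replicate 2. With NACET it held in 2 of 6, with 0.0934 and 0.0627 without control replicates 1 and 3 and 0.133 and 0.0966 without NRF2 ΔC replicates 2 and 3, and its size stands near the fold limit. DESeq2 gave a log2 value of -0.598 with an adjusted p of 8.58e-05, under the fold limit, and so did not call it.

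TGFB2, the TGF-beta ligand that is abundant in the eye, had a wide spread between replicates. In control cells it was 614, 506 and 418 CPM untreated, 632, 525 and 465 CPM with H2O2, and 548, 421 and 300.3 CPM with NACET. Samples of the clone had 548, 412 and 304 CPM untreated, 566, 325 and 292 CPM with H2O2, and 347, 211 and 129.5 CPM with NACET. All neighbouring groups overlapped, yet NACET lay below untreated cells in each same-numbered pair. The log2 value with NACET was -0.28 (SE 0.23, adjusted p = 0.547) in control and -0.88 (SE 0.35, adjusted p = 0.233) in NRF2 ΔC cells. With the replicate block, adjusted p was 5.34e-07 in NRF2 ΔC cells, which called TGFB2 lower there (log2 -0.96). Against H2O2 the log2 value of NACET was -0.77 in NRF2 ΔC cells, with an adjusted p of 0.237, and of 4.58e-08 with the block, which also called it lower. Leaving out 1 sample in turn, that value without the block ran from -1.22 (without NACET replicate 1) to -0.42 (without H2O2 replicate 1) and passed in none of 6 fits, with adjusted p of 0.0826 or more. Between the lines with NACET it was -0.88 (SE 0.36, adjusted p = 0.244). Without NACET replicate 1 of NRF2 ΔC cells, TGFB2 passed the test against untreated cells (log2 -1.32, adjusted p = 0.0425) and against control cells (log2 -1.32, adjusted p = 0.0364), and without H2O2 replicate 1 of NRF2 ΔC cells it passed between the lines with H2O2 (log2 -0.82, adjusted p = 0.00333). Those fits called 3.38%, 6.66% and 17.6% of all genes in that order, against 1.39%, 4.76% and 5.62% in the full fits.

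THBS1, thrombospondin 1, which releases TGF-beta from its latent form, was lowest with H2O2. It was 314, 326 and 218 CPM in untreated control cells, 259.9, 236 and 158 CPM with H2O2, and 359, 329 and 224 CPM with NACET. NRF2 ΔC samples had 337, 294 and 260.3 CPM untreated, 156, 94.4 and 109.8 CPM with H2O2, and 297, 241 and 214 CPM with NACET. The H2O2 samples of NRF2 ΔC cells lay below all other samples, and the control groups overlapped. H2O2 lowered THBS1 2.46-fold in NRF2 ΔC cells (log2 -1.30, SE 0.20, adjusted p = 0.00753), which held in all 6 fits that left out a sample. In control cells the log2 value was -0.38 (SE 0.21, adjusted p = 0.268). NACET gave 2.1-fold more THBS1 than H2O2 in NRF2 ΔC cells (log2 1.07, SE 0.21, adjusted p = 0.0222), and in control cells the log2 value was 0.47 (SE 0.23, adjusted p = 0.253). The former held in 1 of 6 fits, that without H2O2 replicate 1, with adjusted p of 0.103 and 0.0830 without H2O2 replicates 2 and 3 and 0.0542, 0.0852 and 0.0512 without NACET replicates 1, 2 and 3. Between the lines with H2O2 the log2 value was -0.86 (SE 0.23, adjusted p = 0.0618), although the samples did not overlap. It passed in 2 of 6 fits, with 0.0314 without control replicate 3 and 0.00284 without NRF2 ΔC replicate 1. Those fits called 4.45% and 17.6% of all genes, against 5.62% in the full fit. DESeq2 called this difference (adjusted p = 0.00629), with 5.85% of all genes. The replicate block across the lines also called it (adjusted p = 0.000743), with 11.2%. Same-numbered samples did not deviate together in every such pair.

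SMAD7, the inhibitory SMAD that TGF-beta induces as its own brake, was higher in NRF2 ΔC than in control cells with NACET. In control cells it was 35.8, 30.7 and 35.5 CPM untreated, 40.1, 32.7 and 36.9 CPM with H2O2, and 38.4, 29.8 and 37.4 CPM with NACET. Samples of the clone had 45.3, 52.7 and 45.5 CPM untreated, 43.7, 62.6 and 52.6 CPM with H2O2, and 55.5, 66.8 and 59.1 CPM with NACET. All 9 NRF2 ΔC samples lay above all 9 control samples. With NACET the lines differed 1.71-fold (log2 0.77, SE 0.13, adjusted p = 0.0139). Untreated and with H2O2 the log2 values were 0.49 (SE 0.12, adjusted p = 0.0642) and 0.53 (SE 0.16, adjusted p = 0.0852). The treatments did not pass the test in either line, with log2 values from 0.04 to 0.33 against untreated cells. The call with NACET held in 4 of 6 fits that left out a sample, with adjusted p of 0.0574 without control replicate 2 and 0.0752 without NRF2 ΔC replicate 2. With H2O2 it passed without NRF2 ΔC replicate 1 (log2 0.65, adjusted p = 0.00672). That fit called 17.6% of all genes, against 5.62% in the full fit.

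**Figure D2:**
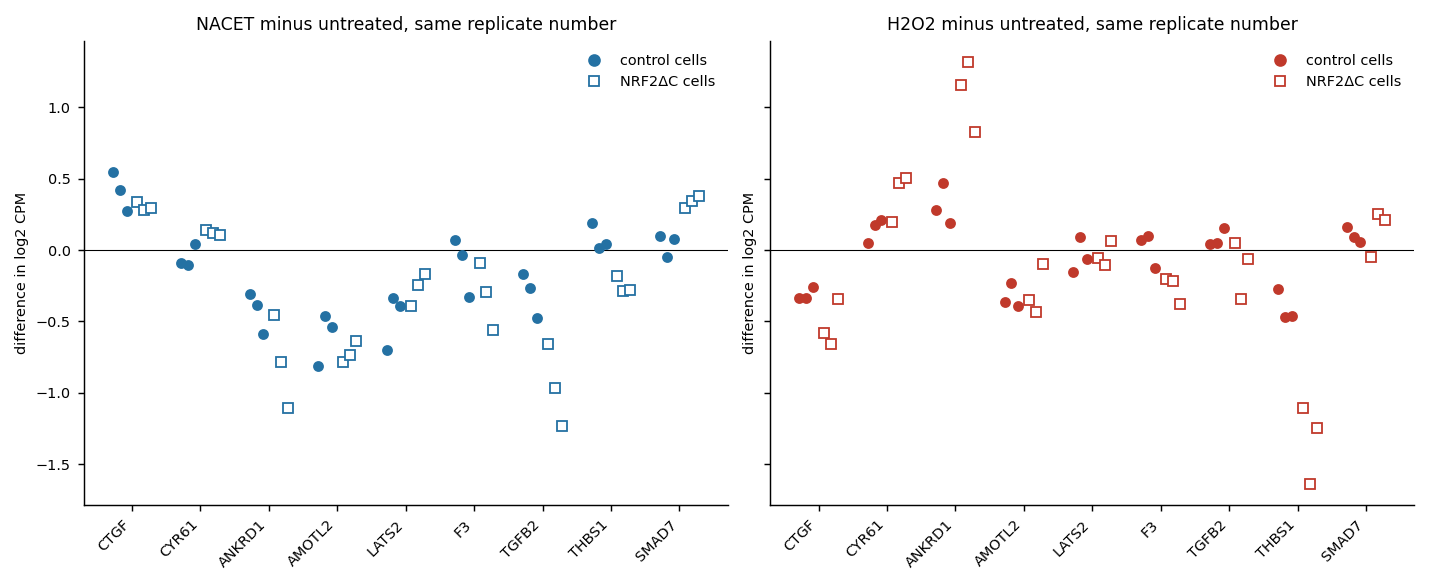
Differences in log2 CPM between a treated and the untreated sample of the same replicate number and line, for NACET and for H2O2. Each symbol is a pair, 3 for each line, filled for control and open for NRF2 ΔC cells. AMOTL2 was lower with NACET in all 6 pairs (-0.81 to -0.46 for the control line, -0.78 to -0.64 for the clone).

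Pair by pair, several of these members took the same side in both lines. The share of all genes that did so was not counted, and same-numbered samples within a line deviated together. CTGF was higher with NACET in all 6 pairs (log2 0.27 to 0.55) and lower with H2O2 in all 6 (-0.66 to -0.26). ANKRD1 was lower with NACET in all 6 pairs (-1.11 to -0.31) and higher with H2O2 in all 6 (0.19 to 1.32). CYR61 was higher with H2O2 in all 6 (0.05 to 0.50). AMOTL2 and THBS1 were lower with H2O2 in all 6 pairs, from -0.43 to -0.09 and from -1.64 to -0.27. LATS2 and TGFB2 were lower with NACET in all 6, from -0.70 to -0.17 and from -1.23 to -0.17. With NACET, THBS1 was higher in the 3 control pairs (0.01 to 0.19) and lower in the 3 NRF2 ΔC pairs (-0.29 to -0.18). F3 and SMAD7 had pairs on both sides with either treatment, as did CYR61 with NACET and LATS2 and TGFB2 with H2O2.

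Whether the response to a treatment differed between the lines was tested itself, as the interaction of treatment and line over 12 samples, called on the adjusted p alone. No member passed for NACET, where 0.0643% of all genes were called, or for H2O2, where 0.0214% were. At an unadjusted p under 0.05, none passed for NACET, against 1.63% of all genes, and 2 for H2O2, against 5.76%: THBS1 (log2 -0.91, SE 0.32, adjusted p = 0.667) and ANKRD1 (log2 0.81, SE 0.36, adjusted p = 0.848). DESeq2 called none of the members in either interaction, against 0.143% of all genes for NACET and 0.396% for H2O2. With a replicate block within each line, a fit added after seeing the data that called 0.9% and 6.91% of all genes, THBS1 (log2 -0.92, adjusted p = 0.000144) and ANKRD1 (log2 0.79, adjusted p = 0.00108) passed for H2O2 and TGFB2 (log2 -0.65, adjusted p = 0.0129) for NACET. The differences of THBS1 with NACET between the lines, with opposite signs, had an adjusted p of 0.0724 in that fit.

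Other genes of these pathways were taken from 5 lists, and are given by counts in the fits without a block. The lists too were chosen with earlier results of these data known. Those fits called 2.75% and 1.39% of all genes with NACET in control and NRF2 ΔC cells, and 6.33% and 9.81% with H2O2. For NACET against H2O2 the shares were 3.67% and 8.31%. Between the lines they were 3.85%, 5.62% and 4.76% untreated, with H2O2 and with NACET. Among 15 further YAP and TEAD targets, NACET lowered 2 in each line and raised none: FOXF2 (log2 -1.20, SE 0.21, adjusted p = 0.0279) and NUAK2 (-0.91, SE 0.14, adjusted p = 0.0202) in control cells, and FOXF2 (-1.11, SE 0.15, adjusted p = 0.0217) and ARHGEF17 (-0.83, SE 0.15, adjusted p = 0.0462) in NRF2 ΔC cells. Their median log2 value was -0.22 for the control line and -0.34 for the clone, beside -0.01 over all genes in both. With H2O2 none was called in control cells, and in NRF2 ΔC cells GADD45A rose (0.77) and ARHGEF17 fell (-0.95). The median of the list with H2O2 was -0.22 for the control line and -0.45 for the clone. NT5E was higher (1.25) and GADD45A lower (-1.0) with NACET than with H2O2 in NRF2 ΔC cells, and none was called in control cells. ARHGEF17 was the only 1 of the 15 called between the lines, lower in NRF2 ΔC cells in all 3 comparisons (-0.86, -1.35 and -1.06).

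Among 20 kinases, adaptors and effectors of the Hippo pathway, AJUBA, a LIM protein that binds LATS kinases, was called most often. NACET lowered it in control cells (log2 -0.68, SE 0.09, adjusted p = 0.0158). In NRF2 ΔC cells the value was -0.75 (SE 0.18, adjusted p = 0.0854), and NACET against H2O2 gave -0.76 and -0.96 in control and NRF2 ΔC cells, both past the test. No other gene of the list was called within a line. Between the lines SAV1 was lower in NRF2 ΔC cells with H2O2 (-0.64, SE 0.11, adjusted p = 0.00888), and none was called untreated or with NACET. YAP1 and WWTR1, the genes of YAP and TAZ, were called in no comparison.

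Among 18 genes of TGF-beta ligands, latency proteins, receptors and SMADs, SMAD6, the other inhibitory SMAD, fell with H2O2 in control (log2 -0.94, SE 0.12, adjusted p = 0.00418) and NRF2 ΔC cells (-1.55, SE 0.22, adjusted p = 0.00570). NACET lowered SMAD6 (-0.62) and the co-receptor TGFBR3 (-0.64) in control cells and ENG in NRF2 ΔC cells, although ENG was at 0.345 to 1.35 CPM as group means. LTBP2 fell with H2O2 in NRF2 ΔC cells (-0.69) and was higher with NACET than with H2O2 in both lines (0.84 and 1.34), as was SMAD6 in NRF2 ΔC cells (1.19), while ENG was lower (-1.49 and -1.33). Between the lines, TGFB1 (1.01, 1.24 and 1.28 untreated, with H2O2 and with NACET) and LTBP2 (0.89, 0.77 and 1.25) were higher in NRF2 ΔC cells in all 3 comparisons. Of the other 16, TGFBR3 (-0.98) and SMAD6 (-0.92) were lower in NRF2 ΔC cells with H2O2.

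Among 17 further genes that TGF-beta induces, of which 16 were tested (SNAI2 was too low), ACTA2, the smooth muscle actin, rose (log2 1.05) and FN1, fibronectin, fell (-0.95) with H2O2 in NRF2 ΔC cells, and ACTA2 was lower with NACET than with H2O2 in both lines (-1.0 and -1.35). TAGLN, a smooth muscle protein, was lower in NRF2 ΔC cells in all 3 comparisons of the lines, with log2 values of -3.02, -2.84 and -2.98, and TGFBI was higher (0.92, 1.0 and 0.90). LMCD1 was higher with NACET than with H2O2 in NRF2 ΔC cells (1.22). Among 12 targets of SRF and MRTF, VCL fell with H2O2 in NRF2 ΔC cells (-0.83), MYL9 was lower in NRF2 ΔC cells in all 3 comparisons of the lines (-1.44, -1.37 and -1.48), and CNN1, at 0.356 to 1.69 CPM as group means, was lower untreated and with NACET (-1.88 and -1.90). The replicate block called more members of the lists within a line, up to 7 of 16 TGF-beta induced genes (2 higher and 5 lower) with H2O2 against untreated NRF2 ΔC cells and 7 of 16 (6 higher and 1 lower) with NACET against H2O2 in the same line, where the block called 18.7% and 15.5% of all genes.

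Across the 18 samples the members did not form 1 pattern. As a description with no test, Pearson's r of log2 CPM was highest for LATS2 with TGFB2 (0.82) and AMOTL2 with LATS2 (0.77), and lowest for CYR61 with THBS1 (-0.83) and ANKRD1 with CTGF (-0.81), which are textbook targets of the same co-activator. The samples share groups, and replicates share numbers, so these values mix treatment, line and replicate. Among 14124 other genes the closest to AMOTL2 were RNF13 (0.95) and GPRC5A (0.95), to LATS2 RGS7BP (0.94) and ADAMTS5 (0.94), and to CYR61 SPPL3 (0.95) and EPHA2 (0.93). The closest to CTGF were SEMA4B (0.92) and GNAZ (0.91), to TGFB2 UBE4A (0.95) and FAM198B (0.94), and to THBS1 TBC1D5 (0.99) and NNT (0.97). MLXIPL was among the 2 closest to ANKRD1 (0.93), and F3 was closest to CSDC2 (0.92) and BZRAP1 (0.91). Within the 9 control samples r was 0.63 for ANKRD1 with MLXIPL, 0.40 for F3 with CSDC2 and 0.55 for F3 with BZRAP1. Within the 9 NRF2 ΔC samples these were 0.95, 0.82 and 0.70. SMAD7 was closest to TGFB1 (0.95) and MIR31HG (0.94), and within the 9 control samples its r with TGFB1 was 0.58 and within the 9 NRF2 ΔC samples 0.89. For SMAD7 with MIR31HG these were 0.69 and 0.82.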

How the data were processed

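RNA of 18 ARPE-19 samples was sequenced as single-end TruSeq libraries on a NextSeq 500. The deposited values are raw counts per gene symbol, which the authors made by aligning reads to hg19 with TopHat2 2.1.0 and counting exons without strand with HTSeq 0.11.2. Genes of rRNA had been removed, and the annotation is not given in the sources used here. Of 23411 symbols, 4060 were at 0 in every library, and the 5 summary lines of HTSeq were left out.

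Differences were tested by edgeR 4.0.16 (R 4.3.3; filterByExpr, TMM, quasi-likelihood test) on the 6 samples of each pair of groups and on 12 for interactions, with Benjamini-Hochberg adjustment over all genes tested. Calls needed an adjusted p under 0.05 and, between 2 groups, a log2 difference of 0.6 or more in either direction. Scripts were tested on simulated data. Deviations of same-numbered samples from their group means correlated at 0.668 to 0.875 within the control line and 0.472 to 0.886 within the clone (9807 genes), above the limit of 0.1, and the numbers come from the sample titles, so that the replicate number was also fitted as a block there. Alternatives were DESeq2 1.42.0, its size factors, no filter, a fit of all 18 samples, no fold limit and leaving out each sample. Levels per length used the merged exons of GENCODE release 44.

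The members and all lists were chosen with earlier results of these data known. Named were the 9 members, NFE2L2 and NQO1, at most 4 called genes per list and comparison, and the 2 genes most alike to each member, and the results of some of these genes are not reported here.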

Additional observations from a re-analysis of the deposited data

Results flagged for a closer look

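The response to H2O2 differed between the lines for THBS1 and ANKRD1 at an unadjusted p under 0.05, and neither passed after adjustment over all genes in edgeR without a block. With a replicate block within each line both passed (edgeR adjusted p = 0.000144 for THBS1 and 0.00108 for ANKRD1), and with a block across the lines THBS1 passed (edgeR adjusted p = 0.0314) and ANKRD1 did not (0.0522). For THBS1 the interaction was -0.91 on the log2 scale (SE 0.32, edgeR adjusted p = 0.667), with a lower level after H2O2 in 3 of 3 pairs of both lines. For ANKRD1 it was 0.81 (SE 0.36, edgeR adjusted p = 0.848), with a higher level after H2O2 in 3 of 3 pairs of both lines.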

How the results depend on the processing

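Of 1215 values of single members under other settings, 1104 kept their direction and side of the threshold, 28 newly passed, 42 no longer passed and 41 turned sign, and the cause was not tested. Most of the 1215 belong to members that the main fit did not call, where staying uncalled counts as kept. The 42 all belong to the few that it called, so the 1104 do not measure how stable the calls are. With NACET in NRF2 ΔC cells, where none was called, DESeq2 called 2 members, no filter 1, the fit of all 18 samples 2 and the replicate block 3. NACET against H2O2 in control cells gave 1 in the fit of all 18 samples in place of 2. Between the lines with H2O2, DESeq2, no filter, the fit of all 18 samples, the replicate block and no fold limit each gave 2 in place of 1. The interaction with NACET gave 1 and that with H2O2 gave 2 with a replicate block within each line, added after seeing the data, and a block across the lines gave 1 with H2O2. Between the lines, same-numbered samples did not deviate together in every pair (lowest correlation -0.274, -0.047 and -0.220). There the block called 843 genes in place of 528 untreated, 1524 in place of 763 with H2O2 and 1018 in place of 648 with NACET, and added THBS1 with H2O2 and TGFB2 with NACET. Over all genes, the block within a line gave 1026 in place of 376 and 1400 in place of 867 for NACET and H2O2 in control cells, 1195 in place of 188 and 2538 in place of 1329 in NRF2 ΔC cells, and 1019 in place of 499 and 2092 in place of 1121 for NACET against H2O2. DESeq2 gave 578 and 570 for NACET in place of 376 and 188, and 27 and 75 for the interactions in place of 9 and 3, where blocks gave 38 and 165 across the lines and 126 and 967 within them.

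Leaving out each sample in turn gave 0 to 1 called members for NACET in control cells, 0 to 2 for NACET and 1 to 2 for H2O2 in NRF2 ΔC cells, 0 to 2 and 1 to 3 for NACET against H2O2, and 0 to 2, 0 to 5 and 1 to 4 between the lines untreated, with H2O2 and with NACET. The shares of all genes called are given above for some of these fits only. They ran from 2% to 18.8% for H2O2 against untreated NRF2 ΔC cells. For NACET against H2O2 they ran from 1.2% to 4.28% (control line) and from 1.87% to 11.7% (clone). Between the lines they ran from 1.88% to 6.49% untreated, from 2.91% to 17.6% with H2O2 and from 2.3% to 6.66% with NACET. Whether members gained or lost calls in these fits beyond such changes was not tested. All sign changes came from these fits, none for a member in a comparison where it was called. For NACET in control cells log2 values ranged from -0.15 to 0.074 (CYR61), -0.22 to 0.040 (F3), -0.079 to 0.26 (THBS1) and -0.027 to 0.15 (SMAD7). For H2O2 they ranged from -0.12 to 0.11 (LATS2), -0.085 to 0.17 (F3) and -0.042 to 0.26 (TGFB2) in control cells, and from -0.13 to 0.10 (LATS2) and -0.44 to 0.17 (TGFB2) in NRF2 ΔC cells. NACET against H2O2 gave -0.14 to 0.040 (SMAD7, control) and -0.10 to 0.0042 (F3, NRF2 ΔC). The lines gave -0.10 to 0.16 (THBS1, untreated) and -0.094 to 0.11 (CTGF, H2O2). Interactions with NACET gave -0.23 to 0.067 (CTGF) and -0.21 to 0.0067 (AMOTL2), and those with H2O2 gave -0.046 to 0.16 (AMOTL2), -0.12 to 0.13 (LATS2), -0.52 to 0.083 (TGFB2) and -0.087 to 0.17 (SMAD7).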
